A study of Mus musculus with 9 samples.

Results

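Cell division genes were followed in dorsal root ganglia (DRGs) of mouse embryos at E18.5, shortly before birth. They were chosen as a fixed list of 39 genes that work in DNA replication, in the entry into mitosis and in mitosis itself, among 55247 genes in the table. The rule went by their known roles and used no measured value, but the list was drawn up with earlier results of these data known. RNA was sequenced in 9 libraries, 3 for each of 3 genotypes. In WT embryos Isl1 and Meis2 were unmodified. In Isl1Cre/+ embryos 1 copy of Isl1, a gene of sensory and motor neurons, held the sequence of Cre recombinase. Isl1Cre/+::Meis2LoxP/LoxP embryos, called mutant here, carried the same Cre allele and had LoxP sites on both copies of Meis2 around the start of the coding sequence for its DNA-binding homeodomain. Deletion therefore depended on Isl1-driven Cre, and cells in which Isl1 had never been active, such as those of connective tissue, were expected to keep an intact Meis2. The sources used here do not say whether a library came from 1 embryo or from several, nor from which litter.

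A dividing cell first loads the MCM helicase on its DNA, then copies the DNA in S phase, and finally separates the chromosomes in mitosis under the control of cyclins and their kinase Cdk1. Most of the proteins involved are made only in cycling cells, and transcription of their genes follows the phase in which they act. At this stage sensory neurons of the DRG have left the cell cycle, whereas Schwann and satellite glial cells, fibroblasts, endothelial cells and macrophages of the ganglion and of tissue attached to it can still divide. In whole ganglia, fewer dividing cells and less RNA of these genes per cell cannot be told apart.

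The promoters of such genes carry short elements that are read by the DREAM complex, the B-MYB and FOXM1 proteins, NF-Y and E2F factors. Upstream sequences are shown for 6 members that stand for steps of the cycle and were set to have their value given in every library. The 250 bases before the RefSeq start of each (GRCm38.p6) are written 5' to 3' along the gene. Capitals mark the cell cycle homology region (CHR, TTTGAA), the CCAAT box and the E2F site (TTTCGCGC, TTTGGCGC, TTTCCCGC or TTTGCCGC), each on either strand.
Mki67 (chr7:135716380-135716629, minus strand): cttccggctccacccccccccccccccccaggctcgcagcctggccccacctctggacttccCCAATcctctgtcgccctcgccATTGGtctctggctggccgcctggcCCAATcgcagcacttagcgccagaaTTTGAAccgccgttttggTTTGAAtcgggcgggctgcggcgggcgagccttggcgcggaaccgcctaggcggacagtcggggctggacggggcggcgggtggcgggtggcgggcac
Top2a (chr11:99024190-99024439, minus strand): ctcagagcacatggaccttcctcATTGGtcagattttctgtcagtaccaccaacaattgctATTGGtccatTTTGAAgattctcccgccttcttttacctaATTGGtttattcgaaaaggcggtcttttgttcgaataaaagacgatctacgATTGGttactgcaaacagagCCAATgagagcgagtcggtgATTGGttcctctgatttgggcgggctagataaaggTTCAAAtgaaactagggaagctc
Cdk1 (chr10:69352913-69353162, minus strand): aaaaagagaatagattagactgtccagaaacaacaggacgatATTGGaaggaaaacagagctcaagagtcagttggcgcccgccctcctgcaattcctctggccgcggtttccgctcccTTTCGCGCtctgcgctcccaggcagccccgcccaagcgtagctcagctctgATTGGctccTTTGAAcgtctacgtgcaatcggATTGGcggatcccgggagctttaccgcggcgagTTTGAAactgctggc
Ccnb1 (chr13:100786487-100786736, minus strand): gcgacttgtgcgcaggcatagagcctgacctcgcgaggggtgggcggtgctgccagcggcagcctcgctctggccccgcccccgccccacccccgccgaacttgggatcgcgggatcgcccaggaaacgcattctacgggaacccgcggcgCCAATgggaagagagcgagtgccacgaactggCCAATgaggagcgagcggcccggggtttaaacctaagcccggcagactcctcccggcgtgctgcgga
Mcm2 (chr6:88898781-88899030, minus strand): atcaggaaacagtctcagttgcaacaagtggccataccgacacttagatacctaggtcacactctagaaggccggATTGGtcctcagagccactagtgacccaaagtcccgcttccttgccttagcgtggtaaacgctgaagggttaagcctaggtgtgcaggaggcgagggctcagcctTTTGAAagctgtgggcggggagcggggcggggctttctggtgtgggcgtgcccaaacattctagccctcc
Pcna (chr2:132253181-132253430, minus strand): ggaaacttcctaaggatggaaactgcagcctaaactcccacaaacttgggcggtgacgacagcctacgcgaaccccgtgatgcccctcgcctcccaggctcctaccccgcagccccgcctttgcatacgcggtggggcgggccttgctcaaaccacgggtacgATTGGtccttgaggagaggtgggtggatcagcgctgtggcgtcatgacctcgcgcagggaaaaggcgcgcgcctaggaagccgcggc

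The upstream sequence of Mki67, the gene of the proliferation antigen Ki-67, held 2 CHR elements and 3 CCAAT boxes. That of Top2a, the topoisomerase that untangles chromosomes before they part, held 2 CHR elements and 6 CCAAT boxes. Cdk1 had 2 CHR elements, 3 CCAAT boxes and 1 E2F site, and its CHR elements began 71 and 15 bases before the start. Pcna, the sliding clamp of the replicating polymerase, had 1 CCAAT box only, and Ccnb1 had 2 CCAAT boxes and no CHR in these letters. Mcm2 had 1 CHR and 1 CCAAT box. These sequences alone do not set replication members apart from mitotic ones, and the shares over all windows follow.

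Promoter windows of 300 bases, 250 before and 50 after the start, were found in the RefSeq table for 33 of the 39 members. A CHR stood in 17 of 22 mitotic members (77.3%) and in 1 of 11 members of replication and of the transition from G1 to S phase (9.09%), which was Mcm2. The share among the 10241 tested genes with a window was 13.8%. CCAAT boxes stood in 19 of the 22 mitotic members (86.4%), in 8 of the 11 others (72.7%) and in 42.8% of tested genes. The E2F site stood in 4 of 11 replication and G1/S members (36.4%), all of them MCM genes (Mcm3, Mcm5, Mcm6 and Mcm7), in 1 of 22 mitotic members (4.55%), which was Cdk1, and in 4.62% of tested genes. CHR and CCAAT box occurred together in 16 of 22 mitotic members (72.7%) and in 6.92% of tested genes. These matches describe letters and not occupied sites.

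All 39 members were detected in all 9 libraries. The libraries held 23854607 to 29103444 counts, and a member had between 178 counts (Cdc20 in mutant library 1) and 4545 counts (Mki67 in Isl1Cre/+ library 1), for which counting error alone is 7.50% and 1.48%. All 39 passed the filter of at least 100 counts in at least 1 library, as did 13200 genes in total. Together the members made up 0.0847% to 0.131% of all counts of a library. The targeted gene Meis2 had 2919, 2902 and 2746 counts in WT. Isl1Cre/+ libraries had 2806, 2857 and 2537 counts, and mutant libraries 1084, 1073 and 1004, below all controls (edgeR log2 fold change -1.33, adjusted p = 0.00779 against WT). Markers of sensory neurons were abundant, and those of spinal cord summed to at most 6.70 cpm (counts scaled to a common library total, with TMM factors over the 9 libraries), with Olig2, Pax2, Lhx1, Lhx5 and Sox21 at 0 in 2 to 4 libraries. WT library 1 and mutant library 2 stood somewhat apart, with a median rank correlation of 0.981 and 0.979 with the other libraries against 0.991 to 0.995 for the rest.

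Per length of exon, the members spanned a wide range of levels. Pcna was highest, with a mean of 23.0 cpm per kb over the 9 libraries, followed by Mcm6 (15.3), Mki67 (12.9), Mcm4 (12.6), Ccnb2 (10.2) and Top2a (9.50). The lowest were Ccnb1 (2.30), Cenpf (2.21), Kif23 (2.17) and Tyms (1.74). Pcna did not overlap with Mcm6 in any library, whereas neighbours further down this order overlapped between libraries. The level per kb rests on all annotated exons of a gene, so a gene with long exons that are little used reads lower.

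**Figure D1:**
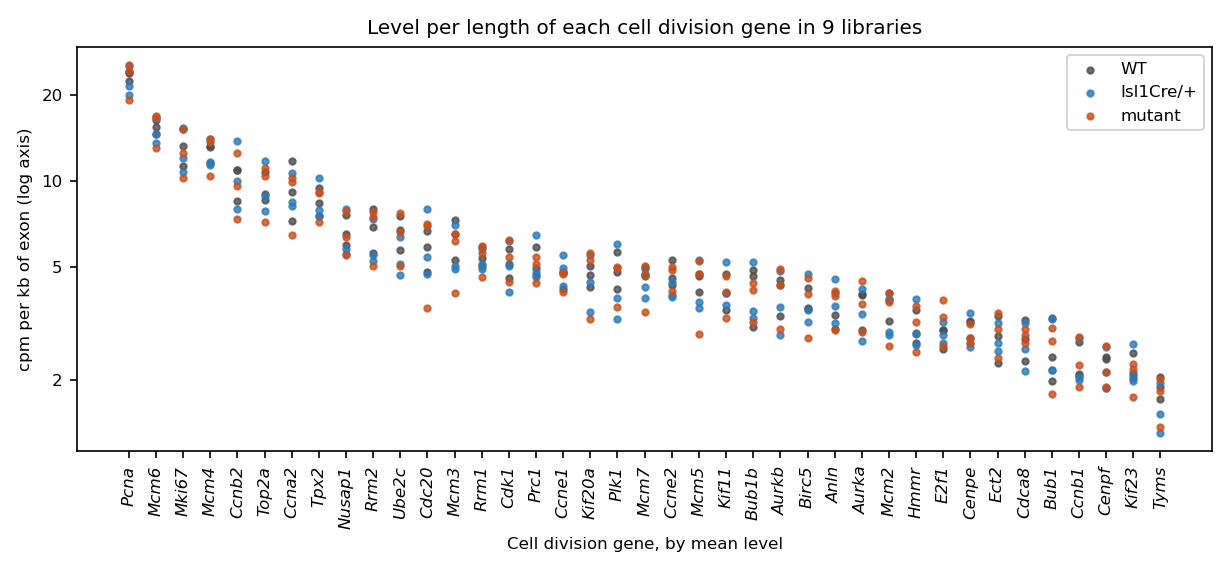
Level per length (cpm per kb of annotated exon, log axis) of the 39 cell division genes, ordered by their mean, with 1 point per library coloured by genotype. Pcna stands highest with a mean of 23.0 and Tyms lowest with 1.74, and the 3 genotypes are mixed at every gene.

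No member passed the test between any pair of genotypes. Between mutant and WT, 0 of 39 members met a fold change of at least 1.2 with an unadjusted p under 0.05 in edgeR's quasi-likelihood test, where 0.318% of all tested genes did (0.0606% higher and 0.258% lower). Between mutant and Isl1Cre/+ it was 0 of 39 against 1.67% of tested genes (1.41% higher and 0.265% lower), and between Isl1Cre/+ and WT 0 of 39 against 1.40% (0.258% higher and 1.14% lower). At these shares, fewer than 1 of 39 genes would be called in each comparison. By adjusted p under 0.05, 0 members were called in any comparison (0.00758%, 0.00758% and 0% of tested genes). Without a fold requirement no member reached an unadjusted p under 0.05 either in edgeR (0.371%, 2.73% and 1.79% of tested genes), nor in the Wald test of DESeq2 or in limma voom. No member had libraries of 1 genotype all above or all below those of another, a separation found upward and downward in 1.02% and 1.74% of tested genes for mutant and WT, in 3.45% and 4.20% for mutant and Isl1Cre/+, and in 2.95% and 2.71% for Isl1Cre/+ and WT. The 3 comparisons share libraries pairwise and are not independent of each other.

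The sum over the 39 members was 1110, 1023 and 1216 cpm in WT libraries 1 to 3, 1292, 1009.5 and 948 cpm in Isl1Cre/+, and 885, 1248 and 1156 cpm in the mutant. The means were 1116 ± 96.5 (SD, n = 3), 1083 ± 184 and 1096 ± 189 cpm. The 3 genotype means lay within a factor of 1.03, while single libraries spanned a factor of 1.46. The median log2 fold change over members was -0.022 between mutant and WT (all tested genes -0.0094), with 16 members above 0 and 23 below. It was 0.022 between mutant and Isl1Cre/+ (all tested genes 0.00029), with 23 above 0 and 16 below. It was -0.040 between Isl1Cre/+ and WT (all tested genes -0.0016), with 14 above 0 and 25 below. Among all tested genes, 46.2%, 50.2% and 49.3% lay above 0 in these comparisons.

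Intervals show, for each member taken alone, how large a difference these libraries leave room for. They are not adjusted for the number of members or of comparisons. The 95% intervals of all 39 members included 0 in each comparison, with a median half-width of 0.39, 0.42 and 0.37 on the log2 scale. Over all members, the intervals of the log2 fold change between mutant and WT ran from -0.66 (Mcm3) to 0.64 (Cdc20), that is from 1.58-fold lower to 1.56-fold higher. Between mutant and Isl1Cre/+ they ran from -0.73 (Cdc20) to 0.68 (Ube2c), and between Isl1Cre/+ and WT from -0.68 (Plk1) to 0.58 (Cdc20). These are the outermost bounds of any member. The median standard error of members was 0.17, 0.18 and 0.16, against 0.13, 0.093 and 0.12 over all tested genes.

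**Figure D2:**
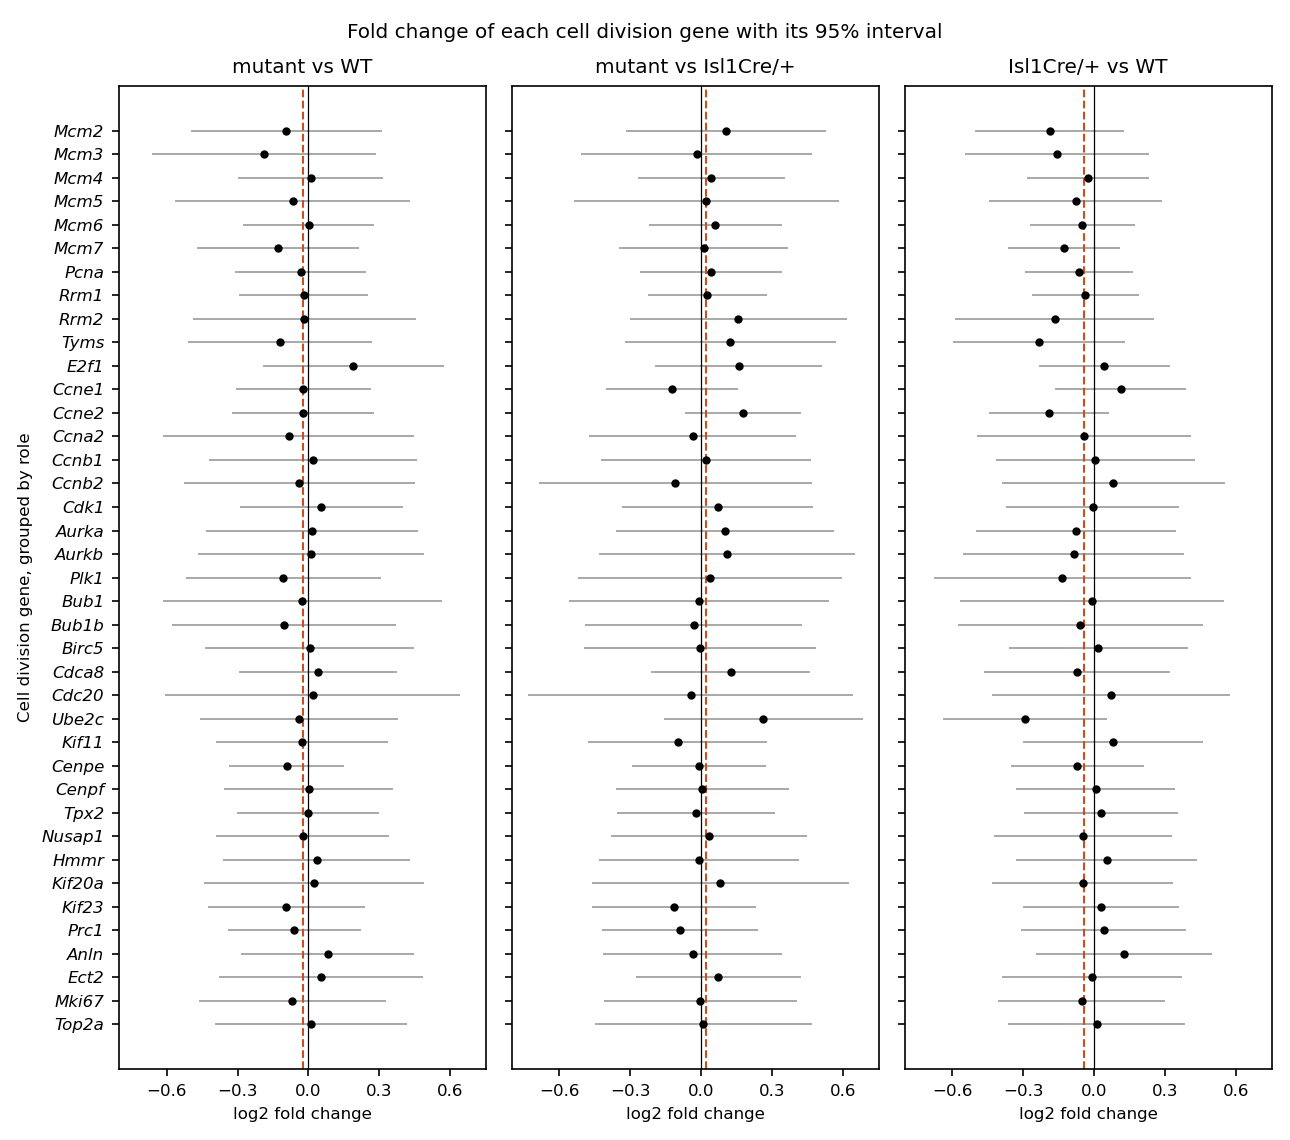
Log2 fold change of each of the 39 cell division genes in the 3 comparisons (points, edgeR) with its 95% interval (bars), the line of no change (solid) and the median over the genes (dashed). All 39 intervals cross 0 in each panel, and the medians lie at -0.022, 0.022 and -0.040.

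The MCM genes Mcm2 to Mcm7 encode the ring-shaped helicase that is loaded at origins before S phase. Their summed level was 206, 199 and 215 cpm in WT, 224, 179.9 and 177 cpm in Isl1Cre/+, and 159, 219 and 222 cpm in mutant libraries 1 to 3. Mcm2 stood at 28.1, 22.5 and 26.6 cpm in WT, 26.7, 20.5 and 20.04 cpm in Isl1Cre/+, and 18.3, 28.05 and 26.1 cpm in the mutant. The mutant held both the lowest value and one close to the highest, and the genotypes overlapped. Mcm3 had the lowest fold change of all members between mutant and WT, with means of 20.9 and 23.8 cpm (log2 -0.19 ± 0.20 SE, 95% interval -0.66 to 0.28). It was -0.0014 without mutant library 1 and -0.32 without mutant library 3. Mcm7 gave -0.13 ± 0.15 (interval -0.47 to 0.22) in the same comparison and -0.13 ± 0.10 (-0.37 to 0.11) between Isl1Cre/+ and WT. Between Isl1Cre/+ and WT all 6 MCM genes lay below 0, led by Mcm2 (-0.19 ± 0.14, interval -0.50 to 0.13), and none passed the test.

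In S phase, Pcna, the ribonucleotide reductase subunits Rrm1 and Rrm2, which make deoxynucleotides, and the thymidylate synthase Tyms were measured. Pcna stood at 57.7, 54.0 and 57.9 cpm in WT, 61.1, 52.0 and 48.2 cpm in Isl1Cre/+, and 46.1, 61.2 and 58.6 cpm in the mutant. The 3 ranges overlapped, and in WT its highest library was only 1.07 times its lowest. Rrm1 varied little too, from 50.6 to 64.9 cpm over the 9 libraries, compared with 46.1 to 61.2 cpm for Pcna. Tyms had means of 11.5 cpm in WT, 9.68 cpm in Isl1Cre/+ and 10.6 cpm in the mutant. Its log2 fold change was -0.23 ± 0.16 (interval -0.60 to 0.13) between Isl1Cre/+ and WT and -0.12 ± 0.17 (-0.51 to 0.27) between mutant and WT.

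Entry into S phase is driven by the factor E2f1 and by the E cyclins Ccne1 and Ccne2, partners of Cdk2. E2f1 had the highest fold change of all members between mutant and WT, with means of 10.3 and 9.002 cpm (log2 0.19 ± 0.16, interval -0.19 to 0.57), and 0.16 ± 0.15 (-0.19 to 0.51) between mutant and Isl1Cre/+. Without mutant library 2 these were 0.080 and 0.032, and without mutant library 1 they were 0.32 and 0.29. Ccne1 and Ccne2 pointed in opposite directions between mutant and Isl1Cre/+, at -0.12 ± 0.12 (interval -0.40 to 0.16) and 0.18 ± 0.10 (-0.067 to 0.42). Between Isl1Cre/+ and WT, Ccne2 gave -0.19 ± 0.11 (interval -0.44 to 0.063). Exons of Ccne2 lie opposite to those of Ints8 over 17.4% of their length, and the strand setting of the counting is not given in the sources used here.

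Ccna2, Ccnb1 and Ccnb2 encode the A and B cyclins that activate Cdk1, the kinase that starts mitosis. Cdk1 stood at 25.1, 22.6 and 28.5 cpm in WT, 30.3, 24.9 and 20.1 cpm in Isl1Cre/+, and 21.8, 30.6 and 26.8 cpm in the mutant. Ccnb1 stood at 8.85, 8.67 and 11.5 cpm in WT, 11.8, 8.44 and 8.61 cpm in Isl1Cre/+, and 7.97, 11.9 and 9.48 cpm in the mutant. Both genes had their highest mutant value in library 2 and their highest Isl1Cre/+ value in library 1, and the genotypes overlapped. Their log2 fold changes between mutant and WT were 0.054 for Cdk1 and 0.018 for Ccnb1, within 1 SE of 0 (0.15 and 0.19). Over the 4 genes of this role the median lay at -0.010, -0.0073 and -0.00066 in the 3 comparisons.

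The mitotic kinases Aurka, Aurkb and Plk1 build the spindle and correct its attachments, and Bub1 and Bub1b act in the checkpoint that holds anaphase until all chromosomes are attached. Their summed level was 62.6, 50.2 and 70.0 cpm in WT, 74.3, 50.9 and 47.5 cpm in Isl1Cre/+, and 45.7, 67.5 and 63.6 cpm in the mutant. Bub1 had the widest spread of any member among WT libraries (1.67 from highest to lowest) and Plk1 among Isl1Cre/+ libraries (1.83). For Plk1 the Isl1Cre/+ values were 13.2, 7.22 and 8.54 cpm. No kinase passed the test.

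Birc5 and Cdca8 belong to the chromosomal passenger complex with Aurkb, and Cdc20 and Ube2c are the activator and the ubiquitin-conjugating enzyme of the anaphase-promoting complex, which degrades the B cyclins. Cdc20 had the widest spread of any member among mutant libraries, a factor of 1.97. It stood at 11.0, 8.95 and 12.5 cpm in WT, 14.9, 10.1 and 8.79 cpm in Isl1Cre/+, and 6.69, 13.2 and 12.9 cpm in the mutant. Cdca8 varied least there (1.12), and gave 0.12 ± 0.14 (interval -0.21 to 0.46) between mutant and Isl1Cre/+.

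Ube2c was the member nearest to a call. It stood at 17.4, 14.9 and 19.6 cpm in WT, 16.6, 13.3 and 12.1 cpm in Isl1Cre/+, and 13.1, 20.1 and 17.2 cpm in the mutant. Isl1Cre/+ libraries were low but overlapped with both other genotypes. The log2 fold change was -0.29 ± 0.15 (interval -0.64 to 0.053) between Isl1Cre/+ and WT and 0.26 ± 0.18 (-0.16 to 0.68) between mutant and Isl1Cre/+. By edgeR's test over all genes these had adjusted p = 0.9999 and adjusted p = 0.9997. Without mutant library 1 the latter became 0.41 and met the call rule, as did 3.08% of tested genes in that setting. The former met it at -0.38 without WT library 2 (2.09% of tested genes), and at -0.43 without Isl1Cre/+ library 1, together with Mcm2, Mcm5, Tyms and Plk1 (1.21%).

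Ube2c (chr2:164769898-164778822 on GRCm38, plus strand) ends against Tnnc2, the gene of a muscle troponin on the other strand, so that 592 of the 2600 bases in its exons (22.8%) face exons of that gene. Tnnc2 stood at 39.9, 6.73 and 40.9 cpm in WT, 6.98, 9.33 and 3.07 cpm in Isl1Cre/+, and 11.99, 105.5 and 35.1 cpm in the mutant. In WT and mutant its lowest and its highest library were the same as those of Ube2c. The same order of libraries was held by 19 of the 39 members in WT and by 32 in the mutant, Ube2c included. In Isl1Cre/+, Tnnc2 was highest in library 2 and Ube2c in library 1. The part of Tnnc2 reads in the Ube2c counts was not tested. Of the 39 members, 10 had exons opposite to those of another gene and 5 over more than 10% of their length, the longest share being 29.3% for Kif20a opposite to Cdc23, which itself varied only from 99.6 to 106 cpm.

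Kif11, Cenpe and Cenpf encode a spindle motor and kinetochore proteins, and Tpx2, Nusap1 and Hmmr help to form and bundle spindle microtubules. Their summed means were 174 ± 18.1, 174 ± 30.8 and 172 ± 25.3 cpm (SD, n = 3) in WT, Isl1Cre/+ and mutant, within a factor of 1.01. Cenpe gave -0.093 ± 0.10 (interval -0.33 to 0.15) between mutant and WT, with means of 24.9 and 26.5 cpm. Kif20a, Kif23, Prc1, Anln and Ect2 act in the spindle midzone and in cytokinesis, and their summed means were 127 ± 15.1, 129.8 ± 23.2 and 127 ± 20.2 cpm. Anln, a scaffold of the contractile ring, had the highest fold change of all members between Isl1Cre/+ and WT (log2 0.13 ± 0.16), with means of 34.3 and 31.6 cpm.

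Mki67 and Top2a were the members with the most counts. Mki67 stood at 153, 114 and 134 cpm in WT, 155, 121 and 108 cpm in Isl1Cre/+, and 103, 154 and 126 cpm in the mutant. Each genotype thus held both a high and a low library, and the ranges overlapped. Its log2 fold change was -0.069 ± 0.17 between mutant and WT, -0.0040 ± 0.17 between mutant and Isl1Cre/+, and -0.053 ± 0.15 between Isl1Cre/+ and WT. Top2a stood at 81.4, 77.5 and 97.3 cpm in WT, 105.97, 79.9 and 70.6 cpm in Isl1Cre/+, and 64.6, 99.99 and 93.7 cpm in the mutant. The 3 log2 fold changes of Top2a lay between 0.0095 and 0.011.

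The members moved together from library to library within a genotype. Isl1Cre/+ library 1 was the highest of its genotype for 39 of 39 members, against 39.5% of all tested genes, and mutant library 1 the lowest for 39 of 39, against 37.75%. Mutant library 2 was highest for 32 members, and mutant library 3 for the other 7 (Mcm3, Mcm4, Mcm5, Mcm7, Rrm2, Bub1b and Cdca8). In WT, library 2 was lowest for 30 members and library 1 for 9, and library 3 was highest for 28 and library 1 for 11. Over all 9 libraries, Isl1Cre/+ library 1 was highest for 17 members and mutant library 2 for 12, whereas mutant library 1 was lowest for 26. Library 1 of Isl1Cre/+ and library 1 of the mutant were at these ends for all members also when scaled by library size only or by size factors of DESeq2. The order in WT depended on the scaling, since by library size only library 1 was lowest for 21 members and library 2 for 18, and library 1 was highest for only 2 and library 3 for 37. The members share these libraries, so that 39 genes are not 39 observations.

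The order of libraries within a genotype showed this too. In the mutant, 32 members (82.1%) had the order 1, 3, 2 from low to high, against 24.75% of tested genes. In Isl1Cre/+, 26 members (66.7%) had the order 3, 2, 1, against 24.6%, and in WT 19 members (48.7%) had the order 2, 1, 3, against 6.66%. The median factor between the highest and the lowest library was 1.28 for members and 1.24 for tested genes in WT. It was 1.41 for members and 1.13 for tested genes in Isl1Cre/+, and 1.45 against 1.17 among mutant libraries.

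Replication and mitotic members were not fully alike in these orders. Of the 13 replication and G1/S members, 8 were highest in mutant library 2 and 5 in mutant library 3, compared with 24 and 2 of the 26 mitotic members. In WT, 6 of the 13 were highest in library 1 and 7 in library 3, compared with 5 and 21 of the 26. This contrast in WT was not seen when scaled by library size only, where library 3 was highest for 13 of the 13 and for 24 of the 26. In the mutant, library 2 was then highest for 6 of the 13 and for 21 of the 26. The summed level of mitotic over that of replication and G1/S members was 1.88, 1.72 and 1.95 in WT libraries 1 to 3. In Isl1Cre/+ it was 2.07, 1.91 and 1.81, and the mutant had 1.85, 1.97 and 1.79. This ratio overlapped between the genotypes.

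**Figure D3:**
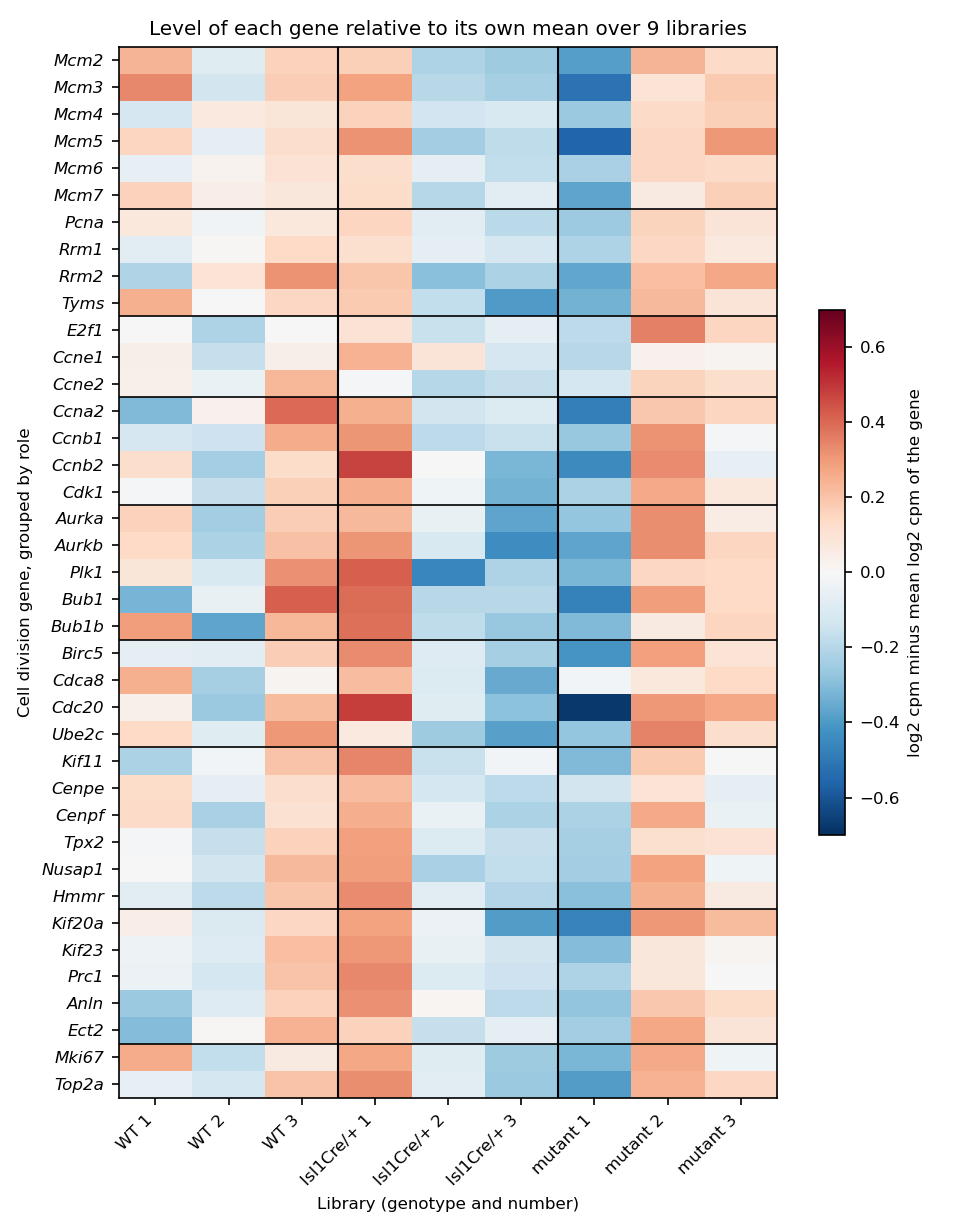
Heat map of the 39 cell division genes (rows, grouped by role) in the 9 libraries (columns), coloured by log2 cpm minus the gene's mean over the libraries. The columns of Isl1Cre/+ library 1 and mutant library 2 are red for nearly all genes and that of mutant library 1 is blue, so the libraries differ more than the genotypes.

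Markers of fibroblasts moved with the members, and those of endothelial cells and macrophages did so in part. The 8 fibroblast markers, collagens among them, summed to 5088, 3723 and 5193 cpm in WT, 5758, 4302 and 3801 cpm in Isl1Cre/+, and 3311, 6539 and 5027 cpm in the mutant. This is the same order of libraries as for the sum of members in each genotype. In WT it depended on the scaling, since by library size only the members summed to 1014, 1039 and 1244 cpm in libraries 1 to 3 and the fibroblast markers to 4645, 3781 and 5314 cpm. Isl1Cre/+ library 1 was highest and mutant library 1 lowest for 8 of 8 fibroblast markers. Endothelial markers were highest in Isl1Cre/+ library 1 for 7 of 7 and lowest in mutant library 1 for 6 of 7, with sums of 269 to 474 cpm over the 9 libraries. In WT they summed to 307, 334.3 and 333.9 cpm and were lowest in library 1 for 5 of 7. By library size only these sums were 279.9, 339 and 342 cpm, the same order as for the members under that scaling. Macrophage markers were highest in mutant library 2 (144 cpm) and lowest in mutant library 1 (58.9 cpm) for 7 of 7. They summed to 86.5, 69.8 and 62.5 cpm in Isl1Cre/+, with library 1 highest for 5 of 7. In WT they summed to 90.1, 76.1 and 85.9 cpm, with library 2 lowest for 6 of 7 as for most members, but with library 1 highest for 4.

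Markers of glia followed the members in part, and those of neurons gave other orders. The 9 markers of Schwann and satellite glia, Sox10 among them, summed to 1215, 1134 and 1219.7 cpm in WT, 1252, 1111 and 1209 cpm in Isl1Cre/+, and 1222, 1104.5 and 1161 cpm in the mutant, a factor of 1.13 from lowest to highest. Mutant library 1, in which the members were lowest, was highest for 3 of the 9 glial markers and lowest for 4. By library size only, the glial sums of mutant libraries 1 to 3 were 1170, 1104 and 1185 cpm. The 10 markers of sensory neurons were highest in mutant library 1 for 10 of 10, where they summed to 7383 cpm, and they summed to 5808 and 6431 cpm in mutant libraries 2 and 3. In WT they summed to 8332, 6581 and 6239.6 cpm and in Isl1Cre/+ to 6638, 6952 and 6517 cpm. No marker of the sets of glia, fibroblasts or macrophages was called in any comparison by fold and p, while 3 of 7 endothelial markers were called higher in Isl1Cre/+ than in WT (0.258% of tested genes) and 1 lower in mutant than in Isl1Cre/+ (0.265%). Of the sensory neuron markers 1 was called, which was Isl1, the gene that holds Cre on 1 copy in both Cre genotypes, and it was lower in mutant than in WT and in Isl1Cre/+ than in WT (0.258% and 1.14% of tested genes). The part of cell composition in the order of libraries was not tested.

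**Figure D4:**
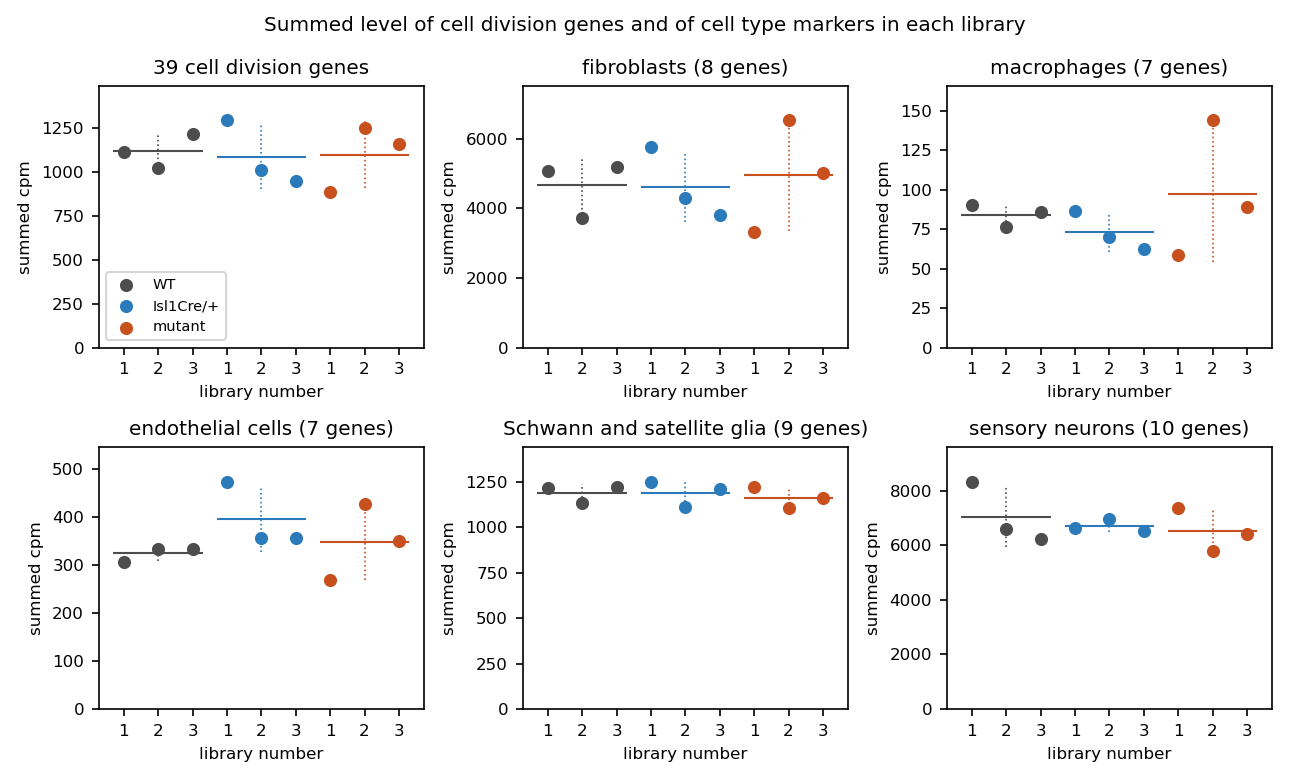
Summed level (cpm, axes from 0) of the 39 cell division genes and of 5 sets of cell type markers in each library, with the mean of each genotype (line) and its SD (dotted bar, n = 3). In the mutant, the cell division genes, fibroblast, macrophage and endothelial markers are lowest in library 1 and highest in library 2, whereas sensory neuron markers are highest in library 1.

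Markers of muscle and red blood cells differed more between libraries than the members did. The 8 skeletal muscle markers summed to 65.9 to 2008 cpm and the 8 erythroid markers to 344 to 3979 cpm. By fold and p, 6 muscle and 7 erythroid markers of 7 tested each were called higher in mutant than in Isl1Cre/+ (1.41% of tested genes) and lower in Isl1Cre/+ than in WT (1.14%). Both sets were highest in mutant library 2 and lowest in mutant library 1, like the sum of members. In Isl1Cre/+, by contrast, both were highest in library 2, the muscle markers for 5 of 8 (sums of 125, 156 and 65.9 cpm) and the erythroid markers for 8 of 8, where all members were highest in library 1. In WT, muscle sums of 446, 118 and 860 cpm had the order of the member sums, and erythroid sums of 2141, 899 and 1507 cpm did not. The 7 cartilage markers summed to 239.6, 180.3 and 242 cpm in WT, 190.1, 214 and 165 cpm in Isl1Cre/+, and 190.3, 245 and 248 cpm in the mutant. Of the 6 that were tested, Acan and Hapln1, which act in cartilage matrix, were called higher in mutant than in Isl1Cre/+ (1.41% of tested genes). The part of these tissues in the values of the members was not tested.

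Further genes of the cycle were looked at beside the members. Of 26 other replication genes 25 were tested, all but Orc1. Between mutant and WT 0 were called and the median log2 fold change was -0.062. Between mutant and Isl1Cre/+ 0 were called, the median was 0.077, and 2 genes had an unadjusted p under 0.05 (2.73% of tested genes) at a fold below 1.2. These were Orc6, a subunit of the origin recognition complex (0.21 ± 0.075, interval 0.035 to 0.39), and Gmnn, the licensing inhibitor geminin (0.26 ± 0.11, interval 0.0042 to 0.52). Between Isl1Cre/+ and WT 1 gene was called, against 1.14% of tested genes called lower, with a median of -0.12 and 22 of 25 genes below 0.

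The called gene was Gins3, a subunit of the GINS complex of the active helicase. It stood at 11.0, 9.24 and 9.42 cpm in WT, 7.83, 8.51 and 7.41 cpm in Isl1Cre/+, and 8.91, 9.24 and 9.03 cpm in the mutant. Isl1Cre/+ libraries lay below all others (log2 -0.31 ± 0.11 against WT, interval -0.58 to -0.043, adjusted p = 0.9999 by edgeR). Libraries of Isl1Cre/+ also lay below those of WT without overlap for Gmnn, Orc6, Pola1 and Slbp, so that this held for 5 of 25 genes, against 2.71% of tested genes. Mutant libraries lay above those of Isl1Cre/+ without overlap for 3 of the 25, Gins3, Gmnn and Orc6, against 3.45%. Between mutant and WT it held for 1 of the 25, against 1.74% of tested genes lower, and this was Gins3, whose highest mutant library (9.235 cpm) lay just below the lowest of WT (9.238 cpm). Among the members no gene showed this separation. Unlike the members, Orc6 was highest in mutant library 1 (32.4 cpm) and lowest in Isl1Cre/+ library 1 (25.2 cpm).

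Of 48 other mitosis genes, 0 were called in any comparison by edgeR, against 0.318%, 1.67% and 1.40% of tested genes. The same shares apply to the 6 and 12 genes below. None of the 48 had an unadjusted p under 0.05 (0.371%, 2.73% and 1.79% of tested genes), with medians of -0.030, 0.0010 and -0.027. Mutant libraries lay above those of Isl1Cre/+ without overlap for 1 of the 48, against 3.45% of tested genes. Isl1Cre/+ library 1 was highest for 43 and mutant library 1 lowest for 42 of these 48. The D cyclins with the kinases Cdk2, Cdk4 and Cdk6, which act in G1, gave 0 calls among 6, with Isl1Cre/+ library 1 highest and mutant library 1 lowest for 6 of 6. Of 12 inhibitors and pocket proteins, which restrain the cycle, 0 were called, with medians of 0.086, 0.074 and 0.011. In Isl1Cre/+ their order of libraries was different, since library 1 was highest for only 3 of 12. Mutant library 1 was lowest for 7 of them, while mutant library 2 and WT library 3 were highest for 10 of 12 each (83.3%, against 82.1% and 71.8% of members). Cdkn1c, an inhibitor of cyclin-dependent kinases, varied most in the mutant, at 118, 279.8 and 124 cpm. Cdkn1a varied only from 80.5 to 92.4 cpm over the 9 libraries.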

How the data were processed

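DRGs of E18.5 embryos were profiled by single-end RNA sequencing. The deposited counts were made by the authors, who aligned reads to mm10 with STAR 2.7.10, removed PCR duplicates with UMI-tools and counted uniquely mapped reads per gene with HTSeq 0.6. The annotation release and strand setting are not given in the sources used here. The deposited log2 fold changes and mean log2 expression, p-values, and scores (moderated statistic and log odds) are results of the limma comparisons of the authors and were not used.

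Tested were the 13200 genes that reached 100 counts in any of the 9 libraries. Each pair of genotypes was fitted alone with edgeR 4.0.16 in R 4.3.3 (TMM, two-sided quasi-likelihood test, Benjamini-Hochberg adjustment over all tested genes). Genes were called at a fold of 1.2 or more in either direction with p under 0.05 before adjustment, the criterion of the study. Every adjusted p, standard error and 95% interval printed is from these fits. Levels in cpm use TMM factors over 9 libraries. Fold changes with intervals are given for the 5 members of lowest p in each comparison, values in every library for Mki67, Top2a, Cdk1, Ccnb1, Mcm2 and Pcna, and for pathway lists the genes called. Cdc20, Ube2c, Tnnc2, Plk1, Bub1, Anln, Orc6, Gmnn, Pola1, Slbp, Cdkn1c, Cdkn1a, Isl1, Acan and Hapln1 were named further after their values were seen.

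Exons and positions come from GENCODE M21 (54855 of 55247 identifiers identical), promoter windows from RefSeq. Members and lists were chosen with earlier results of these data known. Libraries of a genotype were treated as replicates, and p-values then measure only the spread between these libraries. Over all tested genes, squared differences between pairs of these libraries were 12.6 to 129 times those from counting error alone. This is the chi-square divided by its degrees of freedom, scaled by library size only, in which genes with many counts weigh most. Alternatives were DESeq2 1.42.0 (size factors, Wald test), limma voom (limma 3.58.1), library size only, other filters, all 3 genotypes in 1 fit, robust fitting, the replicate number as a block, other fold limits and each library left out. The fit was tested on simulated data. A further marker of the glial set is not reported here, and the summed level leaves it out.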

Additional observations from a re-analysis of the deposited data

How the results depend on the processing

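The count of 0 members called between mutant and WT held under all alternatives tried, those that left out 1 library (0 to 0) included. Between mutant and Isl1Cre/+ the count ran from 0 to 1 with 1 library left out, the 1 being Ube2c at 0.41 without mutant library 1. Between Isl1Cre/+ and WT it ran from 0 to 5. Without Isl1Cre/+ library 1, in which all members were highest, the 5 calls were Mcm2 (-0.33), Mcm5 (-0.27), Tyms (-0.40), Plk1 (-0.42) and Ube2c (-0.43), or 12.8% of members against 1.21% of tested genes, and without WT library 2 the 1 call was Ube2c (-0.38) against 2.09%. The adjusted p called 0 members under every alternative. The median log2 fold change of members ran with 1 library left out from -0.12 to 0.11, from -0.071 to 0.18 and from -0.17 to 0.051 in the 3 comparisons, and was -0.13 between mutant and WT without both WT library 1 and mutant library 2. Between mutant and Isl1Cre/+ it was -0.00050 by library size only. With 1 library left out, Mcm7 and Tyms in mutant against WT ran from -0.24 to 0.016 and from -0.22 to 0.027, above 0 without mutant library 1, and Cdca8 in mutant against Isl1Cre/+ ran from -0.0018, without Isl1Cre/+ library 3, to 0.28; none of these was a call. The other fold changes of members given with an interval kept their sign with 1 library left out, but all except Ccne2 between mutant and Isl1Cre/+ moved by over 1.5 times without 1 of the libraries, such as E2f1 and Mcm3 between mutant and WT, which ran from 0.080 to 0.32 and from -0.32 to -0.0014. Scaling by library size only, added after seeing the data for the orders of libraries, left WT library 2 lowest for 18 members and library 1 for 21 (9 with TMM factors), and WT library 1 was highest for 2, or 7 by size factors of DESeq2 (11 with TMM factors). With the replicate number as a replicate block the count stayed 0 in all 3 comparisons. Same-numbered libraries of different genotypes correlated at -0.60 to 0.39 in their deviations from the genotype mean. For 3 of 9 libraries the best partner in another genotype had their own number. These values showed no pairing by number, but with 3 libraries per genotype they cannot exclude one. How far depth or the spread between libraries limits these values was not tested.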
